A study of Mus musculus with 8 samples.

Results

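The genes described here are 7 that mark T helper lineages other than Th1: *Gata3* for Th2, *Rora* and *Il23r* for Th17, and *Bcl6*, *Cxcr5*, *Ascl2* and *Pou2af1* for T follicular helper (Tfh) cells. They were taken by name from the 52636 rows of the deposited expression table and followed across its 8 libraries. Of the 7 members, 5 had enough reads to be tested, together with 12816 genes in all, and *Il23r* and *Ascl2* were too low. The libraries were made from 200000 sorted splenic CD4+ T cells each, either Foxp3- conventional T cells (Tconvs) or Foxp3+ regulatory T cells (Tregs), sorted as GFP- or GFP+ by a Foxp3 eGFP reporter. The control mice were CD27+/- and the others CD11c-Cd70tg;CD27+/- (CD70Tg), so that both carried a single functional copy of *Cd27*, and in CD70Tg mice the CD11c promoter drives the CD27 ligand CD70 in dendritic cells. The study worked with mice aged 6 to 8 weeks. Each of the 4 groups held 2 libraries, here called first and second by their order in the table. Nothing in the sources used here says whether they came from separate mice, so that the p-values measure only the spread between these libraries. The control columns of the table are named KO, and the sample labels give WT for the same groups. Cells carrying CD25 were removed before sorting for Tconvs but not for Tregs, which bears on every comparison of the subsets below.

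Naive CD4+ T cells become different helper cells depending on the cytokines they meet, and each fate rests on a transcription factor that sustains it and restrains the others. GATA3 drives Th2 cells, which make IL-4, IL-5 and IL-13, and it is also a working factor of Tregs. RORα, a nuclear receptor encoded by *Rora*, takes part in driving Th17 cells, which depend on IL-23 through the receptor chain encoded by *Il23r*. BCL6 drives Tfh cells, which enter B cell follicles through the chemokine receptor CXCR5 and help germinal centre B cells. ASCL2 is a helix-loop-helix factor that can induce CXCR5, and OCA-B, encoded by *Pou2af1*, is a coactivator of octamer-binding factors best known from B cells and also used by T cells. Some Tregs carry BCL6 and CXCR5 too and are then called T follicular regulatory cells.

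The promoters of the members were looked at for the short motifs bound by their own products, since several of these factors act on each other's genes. RefSeq windows were at hand for 6 of the 7 members, and no window for *Cxcr5* was used. Those of *Rora* and *Pou2af1* are shown because these genes changed most, those of *Bcl6* because of the repeats in them, and that of *Il23r* for its match to the motif of the ROR receptors. Each line gives the 250 bases before an annotated start of transcription, 5′ to 3′ on the strand of the gene, and capitals mark every match on either strand to AGATAA (the motif bound by GATA factors), AGGTCA (bound by ROR receptors), TTCNNNGAA (bound by STAT factors, and close to the site of BCL6) or ATGCAAAT (the octamer).
*Rora* (GRCm38.p6, chr9:68653536-68653785, + strand): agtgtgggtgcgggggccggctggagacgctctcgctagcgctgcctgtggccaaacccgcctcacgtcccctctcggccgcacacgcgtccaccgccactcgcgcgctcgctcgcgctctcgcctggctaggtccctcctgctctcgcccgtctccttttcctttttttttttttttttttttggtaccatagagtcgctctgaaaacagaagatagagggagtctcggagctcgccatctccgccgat
*Pou2af1* (GRCm38.p6, chr9:51213440-51213689, + strand): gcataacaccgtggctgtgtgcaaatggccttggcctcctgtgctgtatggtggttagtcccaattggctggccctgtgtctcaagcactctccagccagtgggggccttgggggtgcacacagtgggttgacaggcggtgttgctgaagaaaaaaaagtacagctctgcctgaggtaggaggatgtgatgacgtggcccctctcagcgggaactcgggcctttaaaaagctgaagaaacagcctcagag
*Bcl6*, outer start (GRCm38.p6, chr16:23988853-23989102, - strand): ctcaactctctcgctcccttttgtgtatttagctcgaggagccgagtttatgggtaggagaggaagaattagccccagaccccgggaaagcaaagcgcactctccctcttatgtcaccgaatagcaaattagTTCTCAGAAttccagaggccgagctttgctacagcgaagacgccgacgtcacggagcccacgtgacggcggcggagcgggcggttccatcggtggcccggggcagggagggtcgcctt
*Bcl6*, inner start (GRCm38.p6, chr16:23981284-23981533, - strand): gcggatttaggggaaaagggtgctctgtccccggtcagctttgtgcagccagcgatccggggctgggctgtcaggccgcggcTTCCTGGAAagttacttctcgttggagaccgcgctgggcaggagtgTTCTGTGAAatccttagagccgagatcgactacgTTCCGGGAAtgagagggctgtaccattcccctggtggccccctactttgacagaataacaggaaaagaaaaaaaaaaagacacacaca
*Il23r* (GRCm38.p6, chr6:67491856-67492105, - strand): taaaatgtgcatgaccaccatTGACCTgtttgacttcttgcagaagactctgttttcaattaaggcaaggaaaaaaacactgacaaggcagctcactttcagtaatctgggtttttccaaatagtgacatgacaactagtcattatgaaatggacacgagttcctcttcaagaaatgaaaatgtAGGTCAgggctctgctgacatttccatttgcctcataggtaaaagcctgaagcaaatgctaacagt
The inner start of *Bcl6* had 3 matches to TTCNNNGAA, a motif with 3 or more matches in 0.0335% and 1 or more in 8.3% of all 32851 windows. The outer start had 1. *Il23r* had 2 matches to AGGTCA, a motif with 2 or more matches in 1.81% and 1 or more in 16.3% of windows. The windows of *Rora* and *Pou2af1*, and those of *Gata3* and *Ascl2*, held none of the motifs, where AGATAA occurred in 11.2% and ATGCAAAT in 1.74% of all windows. These shares count windows that run a further 50 bases past the start. A match of letters is a description and says nothing on binding in these cells.

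The values of the table are reads per gene scaled by the authors to 20 M per library. The number of reads behind the libraries, estimated from what 1 read is worth in each, ranged from 1.91 to 33.33 M. The value given by 3 reads was between 1.8 and 31.3 accordingly, highest in Tregs, and is used below as a floor, which covers counting error only. The 5 Treg markers (*Foxp3*, *Il2ra*, *Ikzf2*, *Ctla4*, *Tnfrsf18*) summed to 62848 to 70773 in Treg and 4581 to 6168 in Tconv libraries, and the 7 T cell markers to at least 79773 in every library. Of the B cell markers, *Ighm* (9945 to 49097) and *Cd74*, a chaperone of MHC class II, were high, and *Cd74* rose from 801 and 1509 to 2651 and 5290 in Tconvs (1.76 ± 0.27, adjusted p = 0.00035, limma) and from 2364 and 3214 to 10219 and 11239 in Tregs (1.96 ± 0.27, adjusted p = 0.00027, limma). The other 12 of the 14 summed to 394 to 486 in control and 279 to 397 in CD70Tg Tconvs, and to 819 to 1025 in control and 1186 to 1316 in CD70Tg Tregs. For the tests, log2(value + 5) was fitted by limma in all 8 libraries together, and p-values were adjusted by the Benjamini-Hochberg method over the 12816 genes. A gene is said here to rise or fall when its adjusted p-value is under 0.05, and to be called when its log2 fold change is also beyond 1. All log2 fold changes are on the log2(value + 5) scale and come with their standard error.

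In CD70Tg mice *Rora* rose 3.11-fold in Tconvs and 1.62-fold in Tregs, and *Pou2af1* fell 3.37-fold and 2.34-fold. *Gata3* did not pass the test in either subset. The Tconv results for *Bcl6* and *Cxcr5* changed with the library left out. Of the 5 members tested, 1 was called higher and 1 lower in Tconvs, where 4.07% of all genes tested were called higher and 0.577% lower. In Tregs 0 were called higher by limma (1 had an unadjusted p under 0.05, and limma-voom called 0) and 1 lower, where 2.53% of all genes were called higher and 1.08% lower. On the adjusted p-value alone, 3 members passed in Tconvs and 2 in Tregs, beside 8.81% and 7.4% of all genes.

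**Figure D1:**
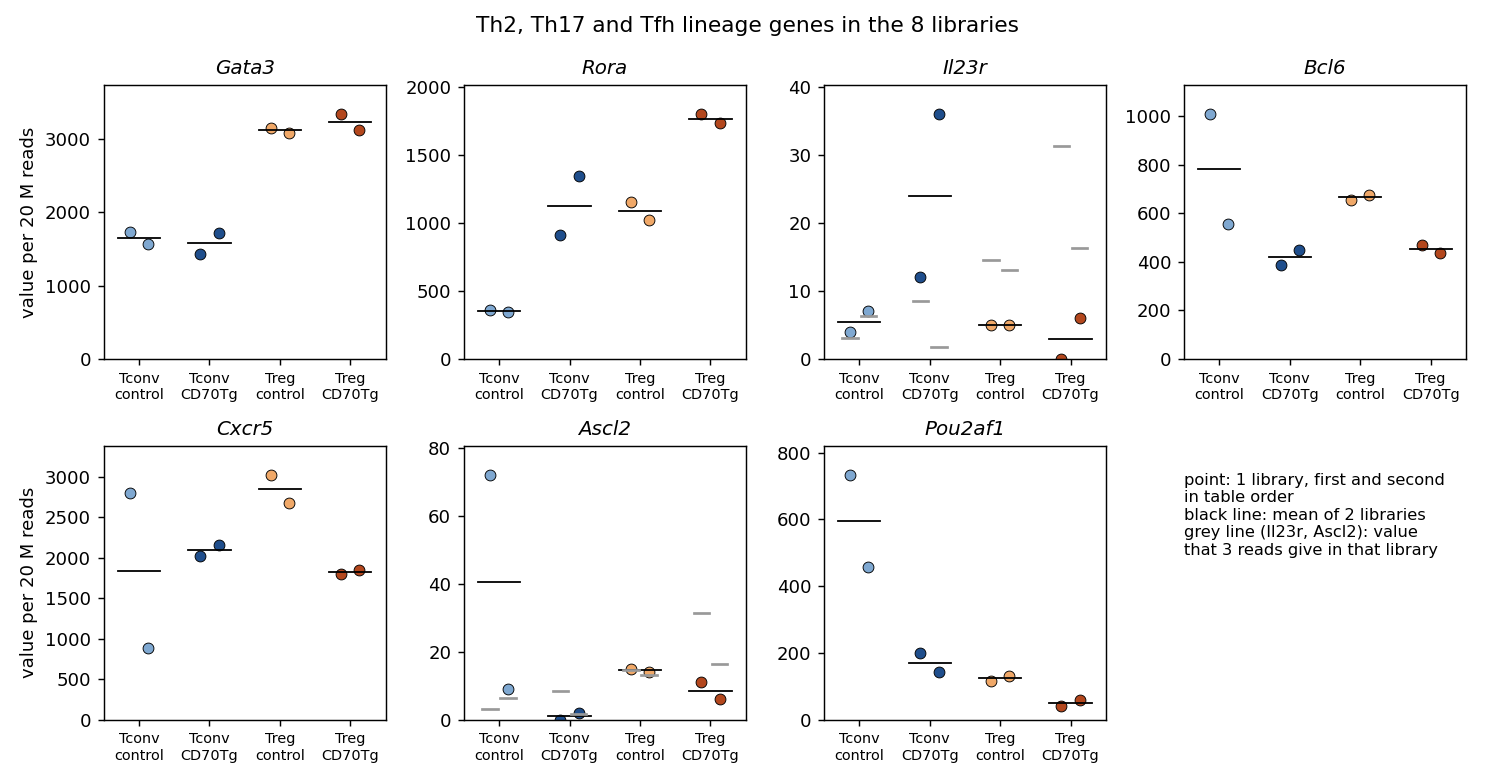
Values of the 7 members in each of the 8 libraries, per 20 M reads on linear axes that start at 0, by subset and genotype, with a line at the mean of the 2 libraries. *Rora* is higher and *Pou2af1* lower in both CD70Tg groups than in the controls of the same subset, and the control Tconv libraries lie far apart for *Cxcr5* (2805 and 881), *Bcl6* and *Ascl2*.

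*Gata3*, the Th2 and Treg factor, stood at 1735 and 1572 in control Tconvs, 1435 and 1721 in CD70Tg Tconvs, 3154 and 3083 in control Tregs and 3334 and 3121 in CD70Tg Tregs. The genotypes overlapped within each subset, and every Treg library was above every Tconv library. CD70Tg differed from control by 0.05 ± 0.12 in Tregs (adjusted p = 0.87, limma) and by -0.07 ± 0.12 in Tconvs (adjusted p = 0.84, limma), with 95% intervals of -0.21 to 0.31 and -0.33 to 0.19 on the log2 scale. A change of 2-fold, which is 1 on this scale, lies outside both. Tregs exceeded Tconvs by 0.91 ± 0.12 in controls (adjusted p = 1.8e-05, limma) and by 1.04 ± 0.12 in CD70Tg mice (adjusted p = 7e-06, limma), of which the second was also past 1. It was not past 1 with limma-voom or without the first CD70Tg Tconv or first CD70Tg Treg library (0.90 and 0.99). *Gata3* lies on chromosome 2 (9857078 to 9890034, minus strand, GRCm38), and an annotated antisense gene, *Gm13256*, covers 3.9% of its exons, over which reads of either gene cannot be told apart unless strand was used in counting. A gene on the same strand, *9230102O04Rik*, covers 1.9% of its exons, where strand does not tell the reads apart.

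*Rora* was the member that rose. Its values were 363 and 342 in control Tconvs and 908 and 1344 in CD70Tg Tconvs, and 1155 and 1025 in control Tregs and 1798 and 1735 in CD70Tg Tregs. The genotypes did not overlap in either subset, and the CD70Tg Tconv libraries fell on either side of the control Treg libraries. The increase was 3.11-fold in Tconvs (log2 fold change 1.63 ± 0.17, adjusted p = 5.8e-06, limma) and 1.62-fold in Tregs (0.70 ± 0.17, adjusted p = 0.019, limma). The Treg increase kept its size under every alternative (0.61 to 0.78), but its adjusted p-value rose to 0.12 with limma-voom on reads, 0.11 with no minimum value, and 0.08 to 0.15 without any 1 of the 4 Treg libraries. The increase in Tregs minus that in Tconvs was -0.94 ± 0.24 (adjusted p = 0.084, limma, unadjusted p = 0.0012), which did not pass the adjustment that 1.02% of all genes passed, and did without the first CD70Tg Tconv library (-1.22, adjusted p = 0.0042, limma).

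Tregs had more *Rora* than Tconvs in both genotypes. The difference was 1.61 ± 0.17 in controls (adjusted p = 1.3e-06, limma) and 0.67 ± 0.17 in CD70Tg mice (adjusted p = 0.0046, limma), the second of which no longer passed without the first CD70Tg Tconv library (0.39, adjusted p = 0.063). From low to high, the mean levels were 352.5 ± 14.8 in control Tconvs, 1090 ± 91.9 in control Tregs, 1126 ± 308 in CD70Tg Tconvs and 1766.5 ± 44.5 in CD70Tg Tregs (SD, n = 2 each), of which the middle groups differed by less than their spread. *Rora* lies on chromosome 9 (68653786 to 69388246, plus strand), with an antisense gene over 0.6% of its exons. Innate lymphoid cells also use *Rora*, and 3 of the 6 ILC and NK markers were near 0, with *Ncr1* at 2 or less, *Klra8* at 2 or less and *Klre1* at 21 or less in every library, while *Klrb1c* was 403 and 423 in control and 75 and 68 in CD70Tg Tconvs. The list as a whole summed to 3061 to 3416 in control and 7014 to 9080 in CD70Tg Tconvs, and to 735 to 738 and 2731 to 2906 in Tregs, through *Eomes* and *Id2*, which CD4+ T cells also express. Fewer cells with a transcript and less transcript per cell cannot be told apart in RNA of sorted populations, here or for any gene below.

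*Il23r*, the receptor chain through which Th17 cells respond to IL-23, was near the floor. Its values were 4 and 7 in control Tconvs, 12 and 36 in CD70Tg Tconvs, 5 and 5 in control Tregs and 0 and 6 in CD70Tg Tregs. The floors of these libraries were 3.1 and 6.3, 8.6 and 1.8, 14.6 and 13.1, and 31.3 and 16.3. The second CD70Tg Tconv library, with about 59 reads, lay well above its own, though its number of reads is less certain. The first CD70Tg Tconv library had 4 reads, and every other library 3 or fewer. In a model with no minimum value the change in Tconvs was 1.35 ± 0.57 (adjusted p = 0.46, limma). No change was detectable at this depth in Tregs, where every library held 1 read or none. *Il23r* lies on chromosome 6 (67422932 to 67491855, minus strand).

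The companion genes of the Th2 and Th17 lineages went both ways in Tconvs, where 3 of the 9 Th2 genes tested rose and 1 fell, and 5 of the 10 Th17 genes rose and 2 fell. Of the 16 Th2 genes listed, the 9 tested were compared in both subsets. In Tconvs 2 were called, both higher, and in Tregs limma and limma-voom called 0 (4 had an unadjusted p under 0.05), with a median log2 fold change of 0.65 in Tconvs and 0.12 in Tregs (0.01 and -0.05 over all genes). *Il1rl1*, the receptor of IL-33, went from 37 and 28 to 196 and 389 in Tconvs (2.92 ± 0.28, adjusted p = 1.9e-06, limma) and from 675 and 657 to 962 and 881 in Tregs (0.46 ± 0.28, adjusted p = 0.36). *Ccr8*, a chemokine receptor of Th2 cells and Tregs, went from 59 and 65 to 113 and 163 in Tconvs (1.07 ± 0.21, adjusted p = 0.0024, limma), and was not past 1 with a pseudocount of 20 or without the second CD70Tg library. Without the first control Tconv library *Maf* and *Nfil3*, factors used by several helper lineages, were called in Tconvs too. The cytokine genes were at the bottom of the range. *Il4* was at 22 and 24 in control and 9 and 15 in CD70Tg Tconvs and at 6 or less in the Treg libraries, *Il5* at 2 or less in every library, and *Il13* at 11 or less.

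Of the 17 Th17 genes, 10 were tested. In Tconvs 4 were called, all higher, and in Tregs 1 higher and 1 lower, with medians of 0.61 and 0.13. *Il12rb1*, a chain shared by the receptors of IL-12 and IL-23, rose from 483 and 448 to 1300 and 2465 in Tconvs (1.93 ± 0.20, adjusted p = 6.1e-06, limma), and was at 1869 and 1940 in control and 3104 and 2937 in CD70Tg Tregs (0.66 ± 0.20, adjusted p = 0.057). The others called higher in Tconvs were *Ccr6*, a homing receptor of Th17 cells and Tregs (1.14 ± 0.22), *Abcb1a*, a drug efflux pump (1.55 ± 0.17), and *Ltb4r1*, the leukotriene B4 receptor (1.80 ± 0.46). *Ccr6* was not past 1 with a pseudocount of 20 (0.98). Without the second CD70Tg Tconv library *Ltb4r1* changed by 1.16 in Tconvs (adjusted p = 0.29), and its call was also lost without either control Tconv library (adjusted p = 0.098 and 0.066) and with no minimum value (adjusted p = 0.17). Those called without the first control Tconv library were *Il12rb1* and *Abcb1a*, and without the second these and *Ccr6*. *Ltb4r1* was also the gene called higher in Tregs, from 34 and 44 to 157 and 169 (1.94 ± 0.46, adjusted p = 0.015, limma), with adjusted p-values of 0.093 with limma-voom and 0.072 to 0.13 without the first control or either CD70Tg Treg library. Only CD70Tg libraries brought *Ltb4r1* to the minimum of 60 needed for testing, so it was tested through the libraries where it was high. With no minimum value its Treg change did not pass (1.94, adjusted p = 0.096, limma). *Il6ra*, which binds the Th17-inducing cytokine IL-6, was the gene called lower in Tregs, from 7298 and 6739 to 3793 and 3024 (-1.05 ± 0.13, adjusted p = 7.3e-05, limma), was not past 1 without the first control or second CD70Tg Treg library, and fell by 0.62 on the log2 scale in Tconvs (adjusted p = 0.0035, limma).

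The cytokine genes of the lineage were near 0. *Il17a* was at 3 or less and *Il17f* at 2 or less in every library, at or under the floor of the library in each case within the rounding of the values.

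**Figure D2:**
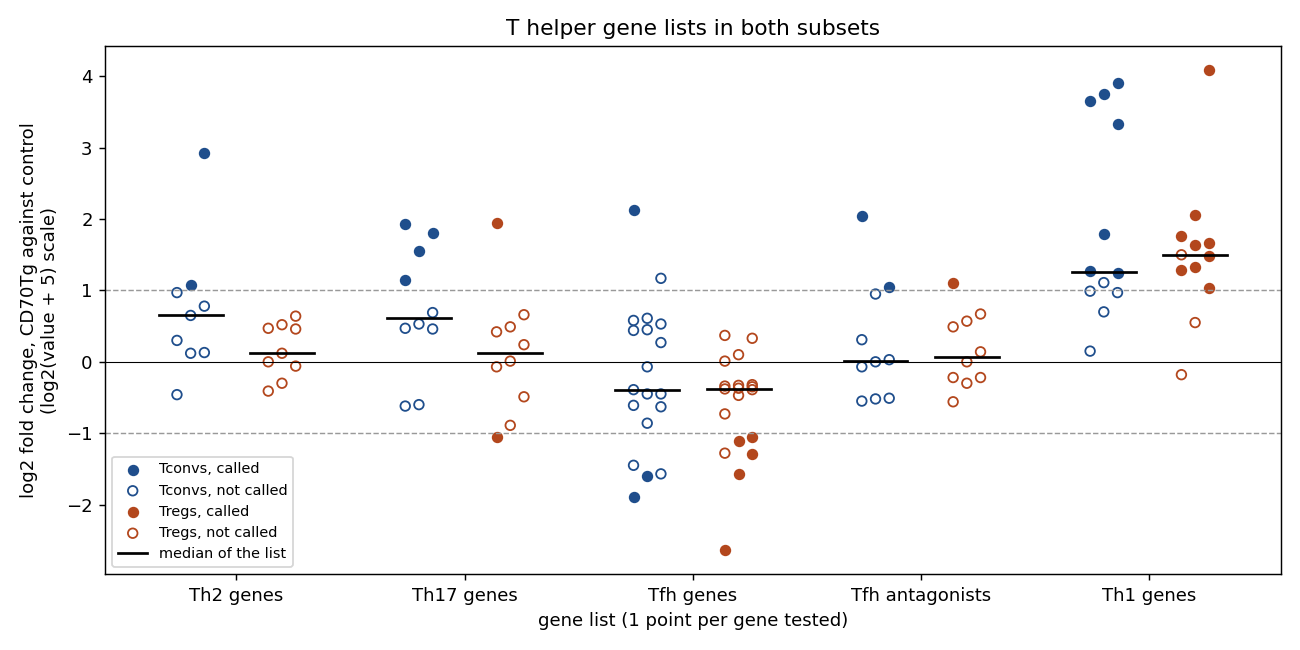
Log2 fold changes, CD70Tg against control, of the tested genes in 5 lists of T helper genes, 1 point per gene, filled where called, with Tconvs in blue, Tregs in orange and a bar at the median of each list. The Th1 genes lie highest, with medians of 1.26 in Tconvs and 1.49 in Tregs, and the Tfh genes lowest, with medians of -0.39 and -0.38.

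Among the Tfh members, *Pou2af1* fell in both subsets. Its values were 733 and 459 in control and 199 and 143 in CD70Tg Tconvs, and 117 and 132 in control and 42 and 60 in CD70Tg Tregs. The genotypes did not overlap in either subset, and the order of the means ran from control Tconvs (596 ± 194) through CD70Tg Tconvs (171 ± 39.6) and control Tregs (124.5 ± 10.6) to CD70Tg Tregs (51 ± 12.7; SD, n = 2 each). The decrease was 3.37-fold in Tconvs (-1.75 ± 0.30, adjusted p = 0.001, limma) and 2.34-fold in Tregs (-1.23 ± 0.30, adjusted p = 0.021, limma). In Tconvs it was called under every alternative, also without any 1 library (-2.09 to -1.42). The Treg decrease rests on about 4 to 30 reads per library and was lost with limma-voom (-1.18, adjusted p = 0.51), with no minimum value (adjusted p = 0.096), with Tregs alone (adjusted p = 0.052) and without either control or the first CD70Tg Treg library (adjusted p = 0.097 to 0.14).

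The Treg and Tconv decreases of *Pou2af1* did not differ beyond the error (0.53 ± 0.43, adjusted p = 0.73, limma, 95% interval -0.38 to 1.43). Tconvs had 4.53-fold more *Pou2af1* than Tregs in controls (Tregs against Tconvs -2.18 ± 0.30, adjusted p = 2.6e-05, limma) and 3.14-fold more in CD70Tg mice (-1.65 ± 0.30, adjusted p = 0.00043, limma, and 0.074 with limma-voom). *Pou2af1* is strongly expressed by B cells. The sums of the B cell markers are given above, and their part in the result was not tested. It lies on chromosome 9 (51213708 to 51240080, plus strand), and no other annotated exon overlaps it.

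The control Tconv libraries differed from each other in Tfh genes. The first had 2805 for *Cxcr5* against 881 in the second, 1008 against 555 for *Bcl6*, 733 against 459 for *Pou2af1* and 72 against 9 for *Ascl2*. *Gata3* (1735 and 1572) and *Rora* (363 and 342) were nearly alike. Of the 19 Tfh genes, 7 were at least 2-fold higher in the first (a log2 ratio over 1), beside 1.05% of all genes tested, and 0 were as much lower. They were *Il21*, the cytokine of Tfh cells (493 and 74), *Sostdc1* (362 and 57), *Cebpa* (389 and 70), *Angptl2* (952 and 243), *Pdcd1*, which encodes the inhibitory receptor PD-1 (1867 and 547), *Fam43a* (133 and 40) and *Tox2*, a Tfh transcription factor (821 and 306). In the control Treg pair 0 of the 19 differed that much, in the CD70Tg Treg pair 1 did, and in the CD70Tg Tconv pair 3 were higher in the second library, beside 1.99% of all genes tested. With 2 libraries there is no test of this difference, and the list was chosen with earlier results of these data known.

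**Figure D3:**
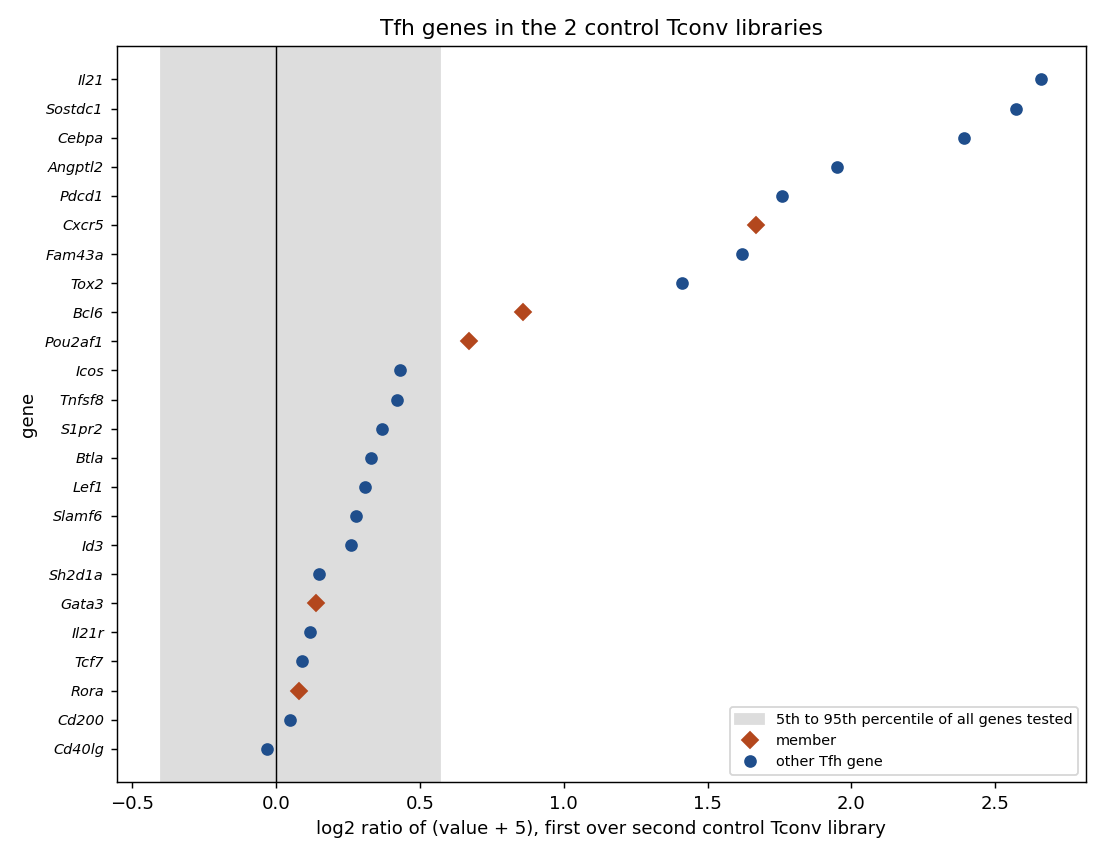
Log2 ratio of (value + 5) between the first and second control Tconv libraries for the 5 tested members (diamonds) and the 19 other Tfh genes (circles), with the 5th to 95th percentile of the 12816 genes tested in grey (-0.40 to 0.57). *Cxcr5* at 1.67, *Bcl6* at 0.86 and *Pou2af1* at 0.67 lie above the grey band, with 7 of the other Tfh genes, and *Gata3* and *Rora* inside it.

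*Bcl6*, the defining factor of Tfh cells, was at 1008 and 555 in control and 389 and 451 in CD70Tg Tconvs, and at 656 and 675 in control and 471 and 435 in CD70Tg Tregs. Every CD70Tg library was below both controls of its subset, and the Tconv and Treg values overlapped. It fell in Tconvs by 0.83 ± 0.22 on the log2 scale (a fold of 1.78, adjusted p = 0.026, limma), short of the threshold for a call. Without the first control Tconv library the change was -0.40 (adjusted p = 0.43) and without the second -1.26 (adjusted p = 0.00092), and it did not pass without either CD70Tg Tconv library (adjusted p = 0.1 and 0.07) or with no minimum value (adjusted p = 0.23). In Tregs the change was -0.55 ± 0.22, which did not pass (adjusted p = 0.16, limma, 95% interval -1.02 to -0.08), and passed with the Treg libraries alone (adjusted p = 0.03). Tregs against Tconvs gave -0.17 ± 0.22 in controls (adjusted p = 0.56) and 0.11 ± 0.22 in CD70Tg mice (adjusted p = 0.72). The difference in controls turned to 0.26 without the first control Tconv library and was -0.60 without the second. *Bcl6*, whose promoter windows are given above, lies on chromosome 16 (23965052 to 23988852, minus strand).

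*Cxcr5*, the receptor that takes T cells into the follicle, was at 2805 and 881 in control and 2029 and 2162 in CD70Tg Tconvs, and at 3023 and 2680 in control and 1798 and 1844 in CD70Tg Tregs. In Tconvs both CD70Tg values lay between the control values, and in Tregs both lay below them. The change in Tconvs was 0.41 ± 0.31 (adjusted p = 0.56, limma, 95% interval -0.25 to 1.08). It was 1.24 without the first control library (adjusted p = 1.1e-05) and turned to -0.42 without the second (adjusted p = 0.12), so that its direction depends on which control is used. In Tregs the change was -0.64 ± 0.31 (adjusted p = 0.25, limma), a fold of 1.56 lower. The estimate was the same with the Treg libraries alone, whose spread is smaller (adjusted p = 0.00022), and without either control Tconv library (adjusted p = 0.0025 and 0.002).

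The Treg change of *Cxcr5* minus the Tconv change was -1.06 ± 0.44 (adjusted p = 0.39, limma), and ranged from -1.89 without the first control Tconv library (adjusted p = 1e-05) to -0.22 without the second (adjusted p = 0.93). Control Tregs exceeded control Tconvs by 0.85 ± 0.31 (adjusted p = 0.036, limma), a difference of 0.02 when measured against the first Tconv library alone and of 1.69 against the second alone. It did not pass with either other scaling (adjusted p = 0.067 and 0.061), with limma-voom (adjusted p = 0.11), with no minimum value (adjusted p = 0.25) or without either control Treg library (adjusted p = 0.13 and 0.072). In CD70Tg mice Tregs against Tconvs gave -0.20 ± 0.31 (adjusted p = 0.64). *Cxcr5* lies on chromosome 9 (44511787 to 44561877, minus strand), and *Bcl9l* on the other strand covers 3.3% of its exons.

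*Ascl2*, an inducer of CXCR5, was at 72 and 9 in control Tconvs, 0 and 2 in CD70Tg Tconvs, 15 and 14 in control Tregs and 11 and 6 in CD70Tg Tregs. The value of 72 in the first control Tconv library was the only one well above its floor. It comes from about 70 reads, a number that is less certain for this library. The 4 Treg values correspond to 1 or 3 reads. The second control Tconv library, at 9, had 4 reads. In the model with no minimum value the change in Tconvs was -2.47 ± 0.76 (adjusted p = 0.24, limma, unadjusted p = 0.013), and no change was detectable in Tregs (-0.56 ± 0.76, adjusted p = 0.79). *Ascl2* lies on chromosome 7 (142966829 to 142969264, minus strand).

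**Figure D4:**
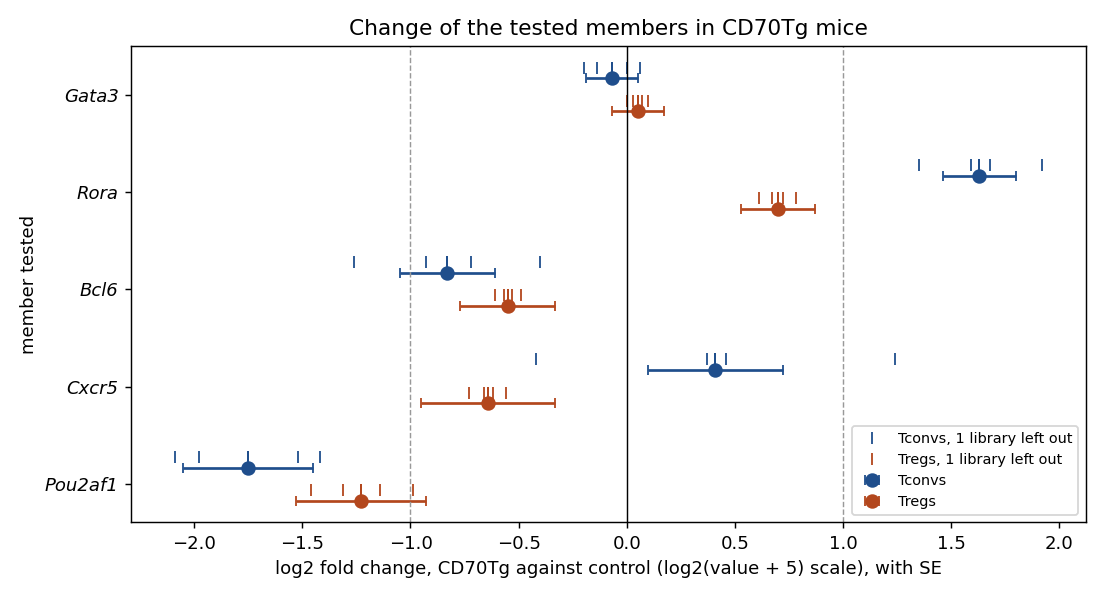
Log2 fold changes, CD70Tg against control, of the 5 tested members with their SE, in Tconvs (blue) and Tregs (orange), with a tick for each fit that leaves out 1 library and dashed lines at the threshold of 1 in either direction. *Rora* is above 0 and *Pou2af1* below 0 in every fit, and the ticks of *Cxcr5* in Tconvs run from -0.42 to 1.24.

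Of the other Tfh genes, 6 fell and 0 rose in Tregs, and 6 fell and 1 rose in Tconvs. *Id3* fell in both subsets, in Tconvs by 0.86 on the log2 scale (adjusted p = 0.00049, limma), short of the threshold for a call. All 19 listed were tested. In Tregs 5 were called, all lower, and in Tconvs 1 higher and 2 lower, with medians of -0.38 and -0.39. Without the first and second control Tconv library the Tconv median was -0.15 and -0.43. Those called lower in Tregs were *Cebpa*, from 588 and 456 to 63 and 98 (-2.64 ± 0.52, adjusted p = 0.0051, limma), *Angptl2*, from 918 and 872 to 314 and 283 (-1.57 ± 0.39, adjusted p = 0.023), *Cd40lg*, the signal by which helper cells license B cells, from 335 and 395 to 115 and 185 (-1.29 ± 0.19, adjusted p = 0.00045), *Id3*, an inhibitor of E proteins, from 1941 and 1791 to 857 and 936 (-1.05 ± 0.14, adjusted p = 0.00015), and *Tox2*, from 602 and 916 to 356 and 327 (-1.11 ± 0.33, adjusted p = 0.048). The same 5 genes were called without either control Tconv library. With limma-voom only *Id3* was called, and the other 4 had adjusted p-values of 0.077 (*Cd40lg*), 0.24 (*Cebpa*), 0.33 (*Angptl2*) and 0.42 (*Tox2*). The calls of *Tox2* and *Angptl2* were also lost without any 1 of the 4 Treg libraries, that of *Cebpa* without the first library of either Treg group, and that of *Tox2* with either other scaling. *Id3* and *Cd40lg* kept an adjusted p-value under 0.05 without each Treg library, but *Cd40lg* was not past 1 without the first CD70Tg library, nor *Id3* without the first library of either group.

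In Tconvs *Pdcd1* was called without either control library. It rose from 1867 and 547 to 3812 and 5157 (2.13 ± 0.34, adjusted p = 0.00047, limma), by 3.01 without the first control library and by 1.25 without the second, and did not pass with no minimum value (adjusted p = 0.099). PD-1 is carried by Tfh cells and by activated and chronically stimulated T cells alike. In Tregs *Pdcd1* was at 1835 and 1826 in control and 1892 and 1800 in CD70Tg mice (0.01 ± 0.34), and its Treg change minus its Tconv change was -2.11 ± 0.48 (adjusted p = 0.042, limma), with adjusted p-values of 0.21 with limma-voom and 0.1 and 0.11 with the other scalings. It was -3.00 without the first control Tconv library and -1.23 without the second. *Angptl2* (-1.60 ± 0.39, adjusted p = 0.016) and *Cebpa* (-1.90 ± 0.52, adjusted p = 0.028) fell in Tconvs. They changed by -0.62 and -0.70 without the first control library (adjusted p = 0.25 and 0.49) and by -2.57 and -3.10 without the second (adjusted p = 1.4e-06 and 3.5e-05). Neither passed without either CD70Tg Tconv library (adjusted p = 0.084 and 0.059 for *Angptl2*, 0.12 and 0.099 for *Cebpa*) or with no minimum value (adjusted p = 0.29 and 0.34). *Il21* was at 493 and 74 in control and 283 and 686 in CD70Tg Tconvs (1.17 ± 0.62, adjusted p = 0.34), passed without the first control library (2.5, adjusted p = 0.01) and turned to -0.16 without the second. Without the first control library 3 of the 18 Tfh genes then tested were called in Tconvs, all higher, and without the second 1 was called higher and 4 lower.

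Of genes that oppose the Tfh fate, *Prdm1* rose most in Tconvs. This gene encodes BLIMP-1, which BCL6 represses and which represses *Bcl6* in turn. It went from 239 and 245 to 911 and 1129 in Tconvs, and from 1582 and 2080 to 2853 and 2909 in Tregs, with no overlap of the genotypes in either subset, and neither control Tconv library changed the Tconv result (log2 fold changes of 2.03 and 2.06 without the first and second). Of the 10 antagonists 2 were called higher in Tconvs, *Prdm1* and the IL-2 receptor chain gene *Il2rb* (1.05 ± 0.12, adjusted p = 2.4e-05, limma), and 1 in Tregs, *Id2*, the counterpart of *Id3* (1.11 ± 0.15, adjusted p = 0.00017, limma). *Id2* also rose in Tconvs (0.95, adjusted p = 0.00039, limma), short of the threshold for a call. *Il2rb* was not past 1 without the first control or the second CD70Tg Tconv library. The medians were 0.02 in Tconvs and 0.07 in Tregs.

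The Th1 genes, given for comparison, were called higher in 9 of 12 tested in Tregs and 7 of 12 in Tconvs, and in 6 and 9 with limma-voom. *Eomes* rose from 352 and 258 to 2807 and 3386 in Tconvs (3.33 ± 0.19, adjusted p = 4.2e-09, limma) and from 93 and 75 to 1547 and 1458 in Tregs (4.09 ± 0.19, adjusted p = 2.2e-09, limma). *Tbx21*, which encodes T-bet, was at 819 and 635 in control and 848 and 2368 in CD70Tg Tconvs (0.97 ± 0.31, adjusted p = 0.066) and rose from 296 and 250 to 607 and 735 in Tregs (1.28 ± 0.31, adjusted p = 0.019, limma), which it did not with limma-voom or without any 1 Treg library (adjusted p = 0.43, and 0.063 to 0.13). *Ifng* and *Il18rap* lost their Treg calls with limma-voom too (adjusted p = 0.55 and 0.4), and without single Treg libraries (adjusted p = 0.053 to 0.16 in 3 fits and 0.1 to 0.12 in 2). Without the second CD70Tg Tconv library *Cxcr3* and *Il18r1* were not past 1 in Tconvs (0.99 and 0.94). Others called in both subsets were *Ifng*, *Cxcr3*, *Il18r1*, *Il18rap* and *Bhlhe40*. Some markers of other cell types were higher in the same CD70Tg libraries, and others, such as *Klrb1c*, were lower. The 2 CD8 T cell markers summed to 681 to 720 in control and 1563 to 1590 in CD70Tg Tconvs, and to 317 to 417 and 631 to 660 in Tregs, with *Cd8a* going from 17 and 28 to 508 and 608 in Tconvs and from 25 and 71 to 262 and 223 in Tregs. In Tregs the 5 neutrophil markers summed to 5 to 10 in control and 187 to 212 in CD70Tg libraries (*S100a9* at 0 and 5 against 95 and 104), the 3 erythroid markers to 419 to 1144 and 1655 to 2624, and the 9 macrophage and dendritic cell markers to 2853 to 2887 and 3104 to 3306, while in Tconvs the ranges of these 3 lists overlapped between genotypes. Of the 7 genes of the last list that were tested, 2 rose and 1 fell in each subset. In Tconvs *Cd68* went from 79 and 51 to 245 and 306 (2.02 ± 0.28, adjusted p = 0.00011, limma) and *Itgax*, which encodes CD11c, from 31 and 57 to 101 and 236 (1.76 ± 0.43, adjusted p = 0.015, limma, and 0.15 and 0.26 without the first control or second CD70Tg library). In Tregs *Zbtb46*, a dendritic cell factor, went from 25 and 27 to 209 and 191 (2.72 ± 0.47, adjusted p = 0.0017, limma), and *Csf1r*, a receptor of macrophages, fell from 1500 and 1205 to 930 and 762 (-0.67 ± 0.18, adjusted p = 0.029, limma). *Zbtb46* and *S100a9* reached the minimum of 60 needed for testing only in CD70Tg Tregs, so they were tested through the libraries where they were high. *Itgam*, which encodes CD11b, fell from 178 and 166 to 93 and 80 in Tconvs (-0.95 ± 0.26, adjusted p = 0.027, limma) and rose from 146 and 198 to 377 and 381 in Tregs (1.13 ± 0.26, adjusted p = 0.013, limma, and 0.059 with limma-voom and 0.06 to 0.19 without the first control or either CD70Tg Treg library). The part of all these markers in the results for the members and lists was not tested. In the paper, CD8+ cells, granulocytes, NK cells, dendritic cells, macrophages and B cells were depleted with antibodies before the cells were stained for CD3 and CD4 and sorted. The increase of *Rora* in Tconvs, at 1.63, lay between those of *Cxcr3* (1.25) and *Eomes* (3.33) in the same cells.

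The 2 subsets can also be set against each other within a genotype. Among the 5 members, *Rora* was called higher and *Pou2af1* lower in control Tregs than in control Tconvs, where 14.7% of all genes were called higher and 4.43% lower. In CD70Tg mice *Gata3* was called higher and *Pou2af1* lower, where 12.3% of all genes were called higher and 4.94% lower. Per kilobase of exon, which allows genes to be compared with each other, *Cxcr5* had the highest mean value of the members in control Tregs (856) and *Gata3* the next (784), while *Bcl6* was at 99.3, *Rora* at 83.4 and *Pou2af1* at 48.8. In control Tconvs the order was *Cxcr5* (553), *Gata3* (416), *Pou2af1* (234), *Bcl6* (117) and *Rora* (27), but *Cxcr5* was at 842 in the first library and 264 in the second, where *Gata3*, at 395, stood above it. In CD70Tg Tconvs *Rora* (69.5 and 103) stood above *Bcl6* (58.1 and 67.3) in both libraries, and *Pou2af1* (78.1 and 56.1) above both in the first and below both in the second.

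The patterns of the members over the 8 libraries were compared by Pearson correlation of log2(value + 5), as a description, since the points share libraries, depth and the 4 groups. *Rora* and *Pou2af1* ran opposite to each other (r = -0.96, n = 8). The 3 genes most like *Rora* were *Fut7*, which makes selectin ligands (r = 0.996), *Il12rb1* (r = 0.994) and *Icam1*, an adhesion molecule (r = 0.994). *Fut7*, at 28 to 190 in Tconvs and 114 to 283 in Tregs, was higher in every CD70Tg than in every control library of the same subset. Among those most like *Pou2af1* were *Rnf144a*, a ubiquitin ligase (r = 0.986), and *St3gal1*, a sialyltransferase (r = 0.984). *Gata3* was most like *Ppfibp1* (r = 0.998), *Smim10l2a* (r = 0.996) and *Ighj4* (r = 0.995), which were all higher in every Treg than in every Tconv library. *Bcl6* was most like *Gnpat*, *Cln6* and *Extl3* (r = 0.951 to 0.962), and *Cxcr5* most like *Ikzf5*, *Acsl4* and *Tm9sf2* (r = 0.919 to 0.932), which share the higher value in the first control Tconv library at a smaller size (*Ikzf5* at 641 against 519).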

How the data were processed

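RNA was sequenced from sorted Tregs and Tconvs of control and CD70Tg mice, 2 libraries per group. The deposited score values were made by the authors, who trimmed reads with Trimmomatic 0.36, mapped them to mm10 with STAR 2.5.3, counted them with HTSeq 0.9.1, scaled each library to 20 M reads and rounded up to whole numbers. Table totals lay between 19963628 and 20164600. Low values are multiples of what 1 read is worth, which gave the number of reads per library; it is less certain for the first control and second CD70Tg Tconv libraries. Of the 52636 rows, 4131 named after genomic clones were left out, since their values follow another step; of rows sharing a name, the largest kept it (97 names).

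The 12816 genes that reached 60 in 2 or more libraries were fitted in R 4.3.3 with limma 3.58.1 (trend in the prior variance, 12.3 prior degrees of freedom) on log2(value + 5) by a model of the 4 group means. Contrasts were CD70Tg against control in each subset, their difference, and Tregs against Tconvs in each genotype. The procedure was tested on simulated data. Columns carry no replicate numbers, and no pairing was used. The CD27+/- controls were taken to be the columns with KO in their name. Text names every member, list genes called in either subset, signature genes of each lineage (*Il4*, *Il5*, *Il13*, *Il17a*, *Il17f*, *Il21*, *Pdcd1*, *Prdm1*, *Tbx21*, *Eomes*), and the 3 genes most correlated with each member; *Fam43a* and *Sostdc1* were named after their values were seen, as were genes named for a check of cell types. A few genes that this rule names are not reported here. The members and lists were chosen with earlier results of these data known. Positions are from GENCODE M21 (GRCm38) and promoter sequences from RefSeq (GRCm38.p6). Alternatives were other pseudocounts, filters, scalings, thresholds, 1 subset alone, limma-voom, and leaving out each library; keeping the clone-named rows was added after seeing the data.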

Additional observations from a re-analysis of the deposited data

Results flagged for a closer look

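No member was flagged. Among the other genes named, the response to the transgene differed between Tregs and Tconvs by limma's test of the difference (adjusted p-value under 0.05) for 10 genes. The Treg change minus the Tconv change was -2.45 for *Il1rl1*, -1.27 for *Il12rb1*, -1.13 for *Abcb1a*, -2.11 for *Pdcd1*, -1.38 for *Prdm1*, -0.91 for *Il2rb*, -1.86 for *Bhlhe40*, -1.05 for the Treg marker *Ctla4*, 4.49 for the neutrophil marker *S100a9* and 2.09 for the myeloid marker *Itgam*. Of 16 alternatives, the difference did not pass in 11 for *Il12rb1*, *Pdcd1* and *Ctla4*, in 8 for *Abcb1a*, in 6 for *Il2rb*, in 4 for *Bhlhe40*, and in 1, with no minimum value, for *Il1rl1* and *Prdm1* (adjusted p = 0.23 for each) and *Itgam* (adjusted p = 0.19). For *S100a9* it did not pass in 6 of the 13 alternatives that gave a value. The size of the *S100a9* difference depends on the pseudocount, and was 6.79 with a pseudocount of 1 (adjusted p = 0.085, limma). Only CD70Tg Tregs brought this gene to the minimum of 60 needed for testing. Groups of 2 libraries are too small for a check of single libraries that stand apart.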

How the results depend on the processing

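Of the members, 1 was called in Tregs, 2 in Tconvs, 0 for the difference (0 also with limma-voom, and 2 with an unadjusted p under 0.05 by limma) and 2 for each comparison of the subsets. The count in Tregs was 0 with no minimum value, with Tregs alone, with limma-voom or at an adjusted p-value under 0.01, and 2 with no threshold on the fold change. In controls, Tregs against Tconvs gave 4 with no threshold on the fold change, and in CD70Tg mice 0 with limma-voom. Leaving out 1 library gave 0 to 1 in Tregs, 2 to 3 in Tconvs, 0 to 1 for the difference, 2 to 3 in controls and 1 to 2 in CD70Tg mice. The member called for the difference was *Cxcr5* without the first control Tconv library and *Rora* without the first CD70Tg Tconv library. No paired analysis was possible because the columns of the table carry no replicate numbers.

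Among all contrasts of the members tested, the changes called in the T helper lists and both changes of the signature genes, 7 turned direction when 1 library was left out. Over these fits, *Gata3* in Tconvs ran from -0.20 to 0.06 and its difference from -0.01 to 0.25, the difference of *Bcl6* from -0.15 to 0.71 and its contrast of control subsets from -0.60 to 0.26, *Cxcr5* in Tconvs from -0.42 to 1.24, *Pdcd1* in Tregs from -0.02 to 0.05 and *Il21* in Tconvs from -0.16 to 2.5. Beyond these, *Tox2* in Tconvs turned from 0.61 to -0.10 without the second control Tconv library, as did the differences of *Il21* (-0.80 to 0.53) and *Cebpa* (-0.74 to 0.45), and that of *Angptl2* turned from 0.03 to -0.95 without the first. The cause was not tested. Scaling moved the median of all genes by at most 0.07 and changed no direction of a member. Of the members, depth limits *Il23r* and *Ascl2*, and *Pou2af1* in Tregs. Other genes with low values in CD70Tg Tregs, such as *Cebpa* (63 and 98) and *S100a9* (95 and 104), also rest on few reads. The results for *Bcl6*, *Cxcr5*, *Il21*, *Cebpa* and *Angptl2* in Tconvs changed with single libraries, whereas *Pou2af1* and *Pdcd1* were called there without any 1 library.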
